A study of Mus musculus with 2 samples.

Results

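The proteins TAL1, LMO2 and LDB1 form the core of a DNA-binding complex of blood cells, and the 10 genes described here encode that core, its helix-loop-helix partners, an LDB1 co-factor and the ETO corepressors that associate with it. They are Tal1, Lyl1, Tcf3, Tcf12, Lmo2, Lmo4, Ldb1, Ssbp3, Cbfa2t3 and Cbfa2t2. They were picked out by gene symbol, with earlier results of these data known, and make up 10 of the 43346 genes with an Ensembl identifier in the deposited tables, together with all 95 of their annotated transcripts. The study sequenced total RNA from a single group, the mouse cell line G1E, in 2 biological replicates called replicate 1 and replicate 2 below. G1E is an immortalized line whose labels give a Gata1- erythroid progenitor of strain C57BL/6J, male, postnatal with an age of 0 day, and no treatment. The input was RNA above 200 nucleotides in size, 1 ng per library. With 1 group there is no condition to contrast. Levels, ratios between genes and transcript shares are therefore described with their spread over the 2 replicates, and replicate 2 is compared with replicate 1.

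As background, TAL1 and its close relative LYL1 are basic helix-loop-helix proteins that bind E-box DNA only when paired with an E protein, such as those made from Tcf3 (E12 and E47) and Tcf12 (HEB). LMO2 has LIM domains but no DNA-binding domain of its own: it bridges the helix-loop-helix pair to GATA1 or GATA2 and to LDB1, which self-associates and can bring distant elements together. SSBP proteins bind LDB1 and protect it from breakdown, and LMO4 can occupy the same surface of LDB1 as LMO2. ETO2 (made from Cbfa2t3) and MTGR1 (from Cbfa2t2) join the complex through E proteins and bring in histone deacetylases and other corepressors. In erythroid progenitors this assembly holds late erythroid genes in check before maturation and occupies many of the same sites during it.

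The libraries held 31649878 and 40597614 estimated counts in replicates 1 and 2, so a count of 0 allowed a level of up to 0.0948 and 0.0739 CPM. The 10 genes together took 17671 and 14853 of these counts, with at least 1073 over both libraries for each. Counting error alone is covered by the intervals and floors below. Most of both libraries was ribosomal RNA, in different proportions: Gm42418, which overlaps a ribosomal RNA repeat, held 52.6% and 40.3%, and the mitochondrial ribosomal RNAs held 14.6% and 35.4%. Levels are in TPM, an abundance divided by transcript length and scaled to the same total in each library. On that scale, the ratio of replicate 1 over replicate 2 had a median of 1.55 over detected nuclear protein-coding genes. Every SD of TPM given here includes this shift. The targeted gene, Gata1, had 798 and 649 counts and 21.96 and 12.51 TPM, and such a count leaves unknown whether the RNA encodes a working protein. All 6 erythroid markers, among them Klf1, Epor, Tfrc, Rhag and Nfe2, were detected, with summed levels of 336.3 and 233.6 TPM. All 8 T and B cell markers had 0 counts. Their deposited upper bounds were highest for Pax5, with credibility intervals of 0.799 to 2.88 and 0.594 to 2.19 TPM. None of the 6 macrophage and granulocyte or the 5 endothelial markers reached 1 TPM in both libraries.

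All 10 genes were expressed, at a median over the genes of 28.2 ± 9.45 TPM (SD, n = 2), and 9 of them stood in the upper part of the range of expressed genes. The median was 34.8 TPM in replicate 1 and 21.5 TPM in replicate 2. Among the 8345 nuclear protein-coding genes detected at 1 TPM or more in both libraries, the positions ran from the 40.8th and 34.8th percentiles for Cbfa2t2 to the 95.3rd and 94.8th for Tcf12. Cbfa2t3, the lowest of the remaining 9, stood at the 79.8th and 78.6th percentiles. Cbfa2t2 was thus the only one of the 10 below the middle of the distribution of detected genes in both libraries.

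**Figure D1:**
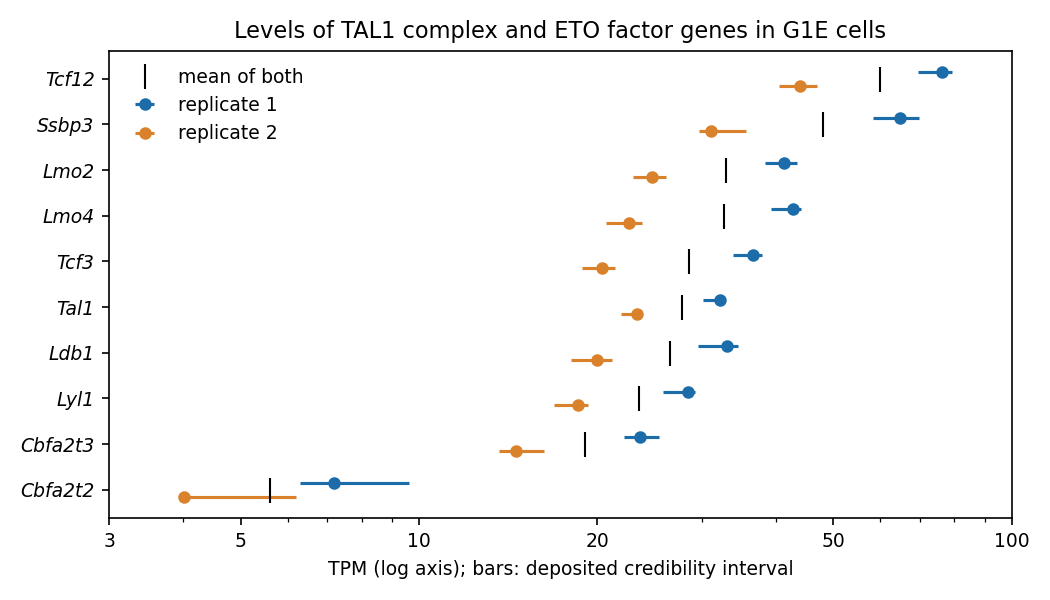
TPM of each gene in replicate 1 (blue) and replicate 2 (orange) on a log axis, with the deposited credibility interval as a bar and the mean of both as a black tick. Every gene is higher in replicate 1, Tcf12 leads in both libraries with 76.2 and 43.96 TPM, and Cbfa2t2 is lowest with 7.18 and 4.02 TPM.

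TAL1, the helix-loop-helix protein that gives the complex its sequence preference together with an E protein, was encoded at a middle level among the 10. Tal1 (chr4:115056426-115071755, plus strand, GRCm38, the assembly also named mm10) had 32.25 TPM (deposited credibility interval 30.1 to 32.5) in replicate 1 and 23.35 TPM (22.0 to 23.7) in replicate 2, from 2773 and 2778 estimated counts. Its mean was 27.8 ± 6.29 TPM (SD, n = 2), and it ranked 7th of the 10 in replicate 1 and 4th in replicate 2. Lyl1 (chr8:84701457-84704715, plus strand), its relative, had 28.43 TPM (25.8 to 29.2) and 18.56 TPM (16.9 to 19.3), from 1017 and 915 counts, with a mean of 23.5 ± 6.98 TPM. Lyl1 shares 4 exonic bases with Nfix on the other strand in the annotation. Tal1 exceeded Lyl1 in both libraries, with a log2 ratio of TPM + 1 of 0.18 and 0.32 (0.25 ± 0.10, SD, n = 2), or 1.19-fold. Together they made up nearly all of this family: Tal1 took 54.4% ± 1.81 and Lyl1 45.5% ± 1.81 of the summed TPM, while the third gene, Tal2, had 2 counts in each library.

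The stretch coding for the basic helix-loop-helix region is shown for both genes because it is the part in which their products are most alike and contact DNA and the E protein. Of 60 encoded residues 50 were identical (83.3%), against 34.7% over the whole aligned proteins of 329 and 278 residues. At the level of DNA 133 of 180 bases were identical (73.9%). The Tal1 stretch lies at chr4:115068285-115068464 and the Lyl1 stretch at chr8:84703906-84704085, each within a single coding exon on the plus strand. Capitals mark the bases that differ between them.
Tal1: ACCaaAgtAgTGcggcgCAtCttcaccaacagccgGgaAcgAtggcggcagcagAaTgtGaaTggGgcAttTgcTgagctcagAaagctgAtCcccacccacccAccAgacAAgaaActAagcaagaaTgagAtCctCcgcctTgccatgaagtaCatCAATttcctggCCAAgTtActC
Lyl1: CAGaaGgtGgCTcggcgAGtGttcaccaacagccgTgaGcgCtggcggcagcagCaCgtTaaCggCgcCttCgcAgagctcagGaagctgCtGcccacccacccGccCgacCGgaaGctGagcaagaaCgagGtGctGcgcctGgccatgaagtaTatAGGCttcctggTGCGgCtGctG

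Tal1 was also simple in its transcripts. One transcript, Tal1-201, which starts at base 115056426 and codes for all 329 residues, held 97.8% and 96.9% of the gene's TPM. The other 3 annotated transcripts shared the rest, and Tal1-204 had 0 counts in both libraries. Lyl1 has a single annotated transcript.

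E proteins, the obligate partners of TAL1 and LYL1, were represented mainly by Tcf12 and Tcf3. Tcf12 (chr9:71842688-72111871, minus strand) had 76.15 TPM (69.6 to 79.3) and 43.96 TPM (40.5 to 47.0), from 4317 and 3479 counts, with a mean of 60.1 ± 22.8 TPM (SD, n = 2). Tcf3 (chr10:80409514-80433647, minus strand) had 36.62 TPM (33.8 to 37.9) and 20.37 TPM (18.8 to 21.4), from 1694 and 1403 counts, with a mean of 28.5 ± 11.5 TPM. Tcf4, the third E protein gene, had 9.38 and 7.14 TPM. Of the summed E protein TPM, Tcf12 took 61.9% ± 0.589, Tcf3 29.2% ± 1.05 and Tcf4 8.83% ± 1.63. The log2 ratio of Tcf12 over Tcf3 was nearly the same in both libraries, 1.04 and 1.07 (1.05 ± 0.03). This is a 2.08-fold difference at gene level on TPM + 1.

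That difference was not present among transcripts that can encode whole E proteins. Restricting both genes to protein-coding transcripts with a complete coding sequence, a choice made after the data were seen, left Tcf12 with 26.29 and 17.49 TPM and Tcf3 with 30.92 and 17.94 TPM. The log2 ratio of Tcf12 over Tcf3 was then -0.13 ± 0.14 (SD, n = 2), so the sign turned and the size was within the spread. The main share of Tcf12 lay instead on Tcf12-210, an 838-base model with an incomplete coding sequence that ends before the exons of the helix-loop-helix region. It held 39.2% and 39.6% of the gene's TPM, but 10.6% of the gene's counts on average, since TPM divides by length. Complete coding transcripts held 37.2% of Tcf12's TPM and 72.6% of its counts. Tcf12-211, an 826-base transcript annotated as a target of nonsense-mediated decay, held 13.4% and 6.49%. Transcripts annotated with that fate took 17.5% of Tcf12 in replicate 1 and 9.03% in replicate 2. Transcripts from the far upstream starts (72109724 to 72111871) took 96.1% and 95.3%, so the choice of start was steady between the libraries.

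ID proteins, which bind E proteins and keep them off DNA, had low levels or no counts. Id1 had 4.33 and 2.9 TPM, from 77 and 74 counts, and Id2, Id3 and Id4 had 0 counts in both libraries. The deposited upper bounds were widest for Id3, at 0.967 and 0.743 TPM. Against the summed ID genes, Tcf3 and Tcf12 together stood 18.9-fold higher on TPM + 1. The added 1 lowers this fold, since the ID genes summed to only 4.33 and 2.9 TPM. The log2 ratio was 4.42 and 4.07 (4.24 ± 0.25, SD, n = 2). On complete coding transcripts alone this log2 ratio was 3.34 ± 0.16.

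Tcf3 makes E12 and E47 by using one or the other of a pair of neighbouring exons, each of which encodes a helix-loop-helix region. The exons are shown because the split between them is the E protein splice choice that these data can address. The upstream exon, which encodes the E12 form, lies at chr10:80412827-80413062 (236 bases), and the downstream exon, for E47, at chr10:80410398-80410624 (227 bases), both on the minus strand. Of 236 aligned bases 175 were identical (74.2%). Capitals mark bases that differ or have no partner in the alignment.
Tcf3 upstream exon: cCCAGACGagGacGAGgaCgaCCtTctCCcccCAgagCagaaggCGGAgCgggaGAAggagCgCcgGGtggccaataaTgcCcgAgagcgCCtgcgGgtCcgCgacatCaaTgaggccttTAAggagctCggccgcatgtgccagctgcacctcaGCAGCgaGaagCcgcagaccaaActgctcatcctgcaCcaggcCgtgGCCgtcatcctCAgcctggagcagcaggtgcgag
Tcf3 downstream exon: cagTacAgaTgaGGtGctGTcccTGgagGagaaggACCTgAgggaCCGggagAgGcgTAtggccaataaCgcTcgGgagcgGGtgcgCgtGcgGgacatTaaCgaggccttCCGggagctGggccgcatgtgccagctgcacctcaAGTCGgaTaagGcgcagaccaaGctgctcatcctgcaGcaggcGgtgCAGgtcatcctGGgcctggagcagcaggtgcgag

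Transcripts with the E47 exon prevailed in both libraries. Among coding transcripts with either exon, which held 86.2% and 88.1% of the gene's TPM, the 7 with the E47 exon took 68.7% and 77.1% (72.9% ± 5.91, SD, n = 2). The 4 with the E12 exon took 31.3% and 22.9% (27.1% ± 5.91). The estimated counts behind these shares were 1193 and 1082 for E47 and 434.7 and 273.0 for E12. The transcripts also differ at their ends and in their first exons, so the split does not come from reads on the exon alone. The E12 share was 34.5% when Tcf3-212, an 819-base transcript annotated as non-coding that holds the upstream exon, was added, a choice made after the data were seen. E47 kept the larger share with that addition.

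Individual Tcf3 transcripts were far less settled than that split. No single one led in both libraries: Tcf3-203 was highest in replicate 1 with 23.6% of the gene's TPM and had 12.4% in replicate 2, while Tcf3-208 was highest in replicate 2 with 29.8% and had 11.7% in replicate 1. The deposited TPM of Tcf3-208 in replicate 2, 6.07, lay above its own credibility interval of 0.961 to 5.41. Tcf3-205 held 22.1% and 17.3%, and Tcf3-202 held 7.99% and 20.8%. Tcf3-209 held 10.2% in replicate 1 and Tcf3-204 5.37%, and both were at or within 0.01 of 0 counts in replicate 2. Tcf3-210 held 7.56% in replicate 2 and had 0 counts in replicate 1. The non-coding Tcf3-212 was steady, at 9.22% and 10.6%. By start site, the distal cluster (80433621 to 80433647) took 38.7% and 58.4% and the next (80430985 to 80431082) 47.5% and 29.7%, so their order differed between the libraries.

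Tcf12 has an alternative exon of 72 bases that adds 24 residues to HEB, at chr9:71868999-71869070 on the minus strand. It is shown because the estimated share of transcripts with it differed between the libraries. Capitals mark the exon, and the 15 lower-case bases on each side come from the neighbouring exons.
Tcf12 exon: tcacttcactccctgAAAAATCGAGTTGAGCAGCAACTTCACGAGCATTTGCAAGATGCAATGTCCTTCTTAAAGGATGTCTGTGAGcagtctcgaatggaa

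Among the 8 coding transcripts with both flanking exons, the 4 with the 72-base exon took 69.0% of TPM in replicate 1 and 40.0% in replicate 2 (54.5% ± 20.5, SD, n = 2). The contrast lay mainly between a pair of transcripts. Tcf12-202, with the exon, had 15.16 TPM (13.3 to 15.9) and 6.81 TPM (5.62 to 7.40). Tcf12-201, without it, had 8.14 TPM (5.71 to 9.95) and 10.15 TPM (8.21 to 10.8). Their order turned between the libraries, and their credibility intervals did not overlap in either one. Tcf12-202 also has a longer 3′ end, 6299 bases in all against 4621, so reads outside the exon weigh on this split as well. The part of transcript assignment in the difference was not tested.

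**Figure D2:**
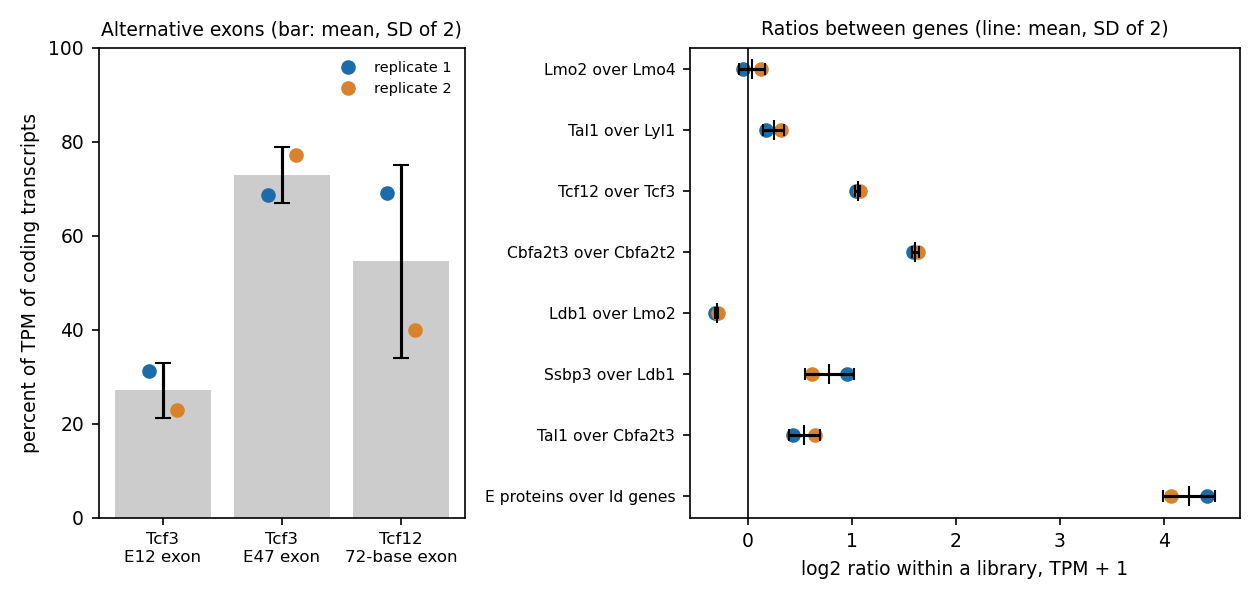
Left, percent of TPM of the coding transcripts with the E12 or E47 exon of Tcf3 and with the 72-base exon of Tcf12, as replicate 1 (blue) and replicate 2 (orange) points with a bar for the mean and the SD of 2. Right, log2 ratios between genes within each library on TPM + 1, with the mean and SD. E47 exceeds E12 in both libraries, and the Tcf12 exon runs from 69.0% to 40.0%. For Tcf12 over Tcf3, Cbfa2t3 over Cbfa2t2 and Ldb1 over Lmo2, the points of the 2 replicates nearly coincide within each ratio.

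LMO2 and LMO4, LIM-only proteins that dock on LDB1, were encoded at about equal levels. Lmo2 (chr2:103957986-103981878, plus strand) had 41.31 TPM (38.4 to 43.5) and 24.69 TPM (22.9 to 26.1), from 1201 and 997 counts, with a mean of 33.0 ± 11.8 TPM (SD, n = 2). Lmo4 (chr3:144188530-144205220, minus strand) had 42.83 TPM (39.2 to 44.2) and 22.58 TPM (20.7 to 23.8), from 1149 and 836 counts, with a mean of 32.7 ± 14.3 TPM. Lmo4 was the higher of the pair in replicate 1 and Lmo2 in replicate 2, with a log2 ratio of Lmo2 over Lmo4 of -0.05 and 0.12 (0.04 ± 0.12). Neither library separated them by credibility interval. Lmo1 and Lmo3 had 0 counts in both, so the family consisted of Lmo2 (50.7% ± 2.22) and Lmo4 (49.3% ± 2.22). Their products, of 158 and 165 residues, were 46.6% identical over the best-matching 118 positions.

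Both LMO genes used one main start. For Lmo2, transcripts from the upstream start (103957986 to 103957995) took 93.4% and 95.3% of TPM, nearly all on Lmo2-208. The downstream starts (103969528 to 103971179) took 6.56% and 4.70%, all on Lmo2-204, a model with an incomplete coding sequence. The remaining 6 Lmo2 transcripts had 0 counts in both libraries. Lmo4 used its downstream start (144202300 to 144202396) for 84.3% and 85.5% and its upstream start (144205180 to 144205220) for 14.1% and 14.0%. Lmo4-203 alone held 81.9% and 84.3%, and Lmo4-201, from the upstream start, 13.3% and 11.9%.

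LDB1, the scaffold that LMO2 and LMO4 share, was encoded at a lower level than the summed LMO genes and in nearly the same proportion to Lmo2 in both libraries. Ldb1 (chr19:46031570-46045214, minus strand) had 33.06 TPM (29.5 to 34.6) and 20.0 TPM (18.0 to 21.2), from 1165 and 915 counts, with a mean of 26.5 ± 9.23 TPM (SD, n = 2). The log2 ratio of Ldb1 over Lmo2 was -0.31 and -0.29 (-0.30 ± 0.02), or 0.811-fold on TPM + 1. Its paralog Ldb2 had 0 counts in both libraries. Ldb1 shares 177 of its 4606 exonic bases with Pprc1 on the other strand, and Pprc1 had 1407 and 1239 counts. No source used here says whether the counting used strand, so how reads in those bases were divided is not known.

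Ldb1 RNA was spread over several transcripts. Ldb1-201, from the distal start, held 34.2% and 43.2%, and Ldb1-205, from an internal start, 23.4% and 29.9%. Ldb1-206 held 16.8% and 7.63%. A transcript with a retained intron, Ldb1-204, held 15.6% and 17.8%. Ldb1-202 had 144.7 estimated counts and 9.46% in replicate 1 but 0 counts in replicate 2, with credibility intervals of 0.987 to 4.89 and up to 0.854 TPM. Grouped by start, the shares were steady: 50.9% in both libraries for the distal cluster (46044914 to 46045214), 32.9% and 29.9% for the middle (46039481 to 46039621), and 15.6% and 17.8% for the start at 46036000.

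SSBP3, which binds LDB1 and shields it from the ubiquitin ligase RLIM, had the second highest gene level. Transcripts with a complete coding sequence held 29.7% and 50.2% of its TPM, and 60.9% and 79.0% of its counts. Ssbp3 (chr4:106910701-107049694, plus strand) had 64.85 TPM (58.4 to 69.7) and 31.14 TPM (29.6 to 35.6), from 1950 and 1530 counts, with a mean of 48.0 ± 23.8 TPM (SD, n = 2). Ssbp2 and Ssbp4, its relatives, had 15.85 and 12.55 TPM and 4.51 and 2.82 TPM. Ssbp3 took 71.5% ± 6.47 of the family, Ssbp2 22.8% ± 5.93 and Ssbp4 5.68% ± 0.545. The log2 ratio of Ssbp3 over Ldb1 was 0.95 and 0.61 (0.78 ± 0.24), or 1.72-fold on TPM + 1.

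Transcripts annotated as coding took 48.1% and 50.2% of Ssbp3, and processed transcripts, which have no annotated coding sequence, 51.9% and 49.8%. In estimated counts, which are not divided by length, the processed transcripts had 693.6 of 1950 and 320.6 of 1530. The leading coding transcript, Ssbp3-201, held 25.7% and 32.8% of TPM and 58.1% ± 3.10 of counts (SD, n = 2). Ssbp3-208, an 888-base processed transcript near the 3′ end of the gene, held 16.9% and 28.8%. Several others appeared in a single library. Ssbp3-206, a 359-base incomplete coding model, held 17.8% in replicate 1 and had 0 counts in replicate 2, and Ssbp3-213 held 14.7% and had 0. Ssbp3-202 held 3.92% and 17.4%. The processed transcript Ssbp3-209 held 7.11% and 4.08%, and Ssbp3-217, also processed, 1.16% and 6.49%. On complete coding transcripts alone Ssbp3 had 19.23 and 15.64 TPM, and its log2 ratio over Ldb1 was -0.28 ± 0.33, with the sign turned and the size within the spread.

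ETO2, the corepressor of the complex in erythroid progenitors, was encoded at several times the level of its relative MTGR1. Cbfa2t3 (chr8:122625141-122699109, minus strand) had 23.6 TPM (22.2 to 25.4) and 14.57 TPM (13.7 to 16.3), from 1859 and 1473 counts, with a mean of 19.1 ± 6.39 TPM (SD, n = 2). Cbfa2t2 (chr2:154436481-154539356, plus strand) had 7.18 TPM (6.31 to 9.62) and 4.02 TPM (3.93 to 6.20), with a mean of 5.60 ± 2.23 TPM. Its 545.5 and 527.3 estimated counts were not whole numbers, so part of its reads were shared with another gene by the authors' estimate. The log2 ratio of Cbfa2t3 over Cbfa2t2 was 1.59 and 1.63 (1.61 ± 0.03), or 3.05-fold on TPM + 1. The added 1 lowers this fold at the low level of Cbfa2t2. Runx1t1, the gene of ETO itself, had 0 counts in both libraries, so Cbfa2t3 took 77.5% ± 1.20 of the family and Cbfa2t2 22.5% ± 1.20. The encoded proteins, of 620 and 594 residues, were 56.0% identical over their aligned length.

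Set against the activator side of the complex, Tal1 stood 1.45-fold above Cbfa2t3 on TPM + 1. The log2 ratio was 0.43 and 0.65 (0.54 ± 0.15, SD, n = 2). Cbfa2t3 transcripts came from the upstream start (122698902 to 122699109) for 98.0% and 96.8% of TPM. Cbfa2t3-203, which encodes the full protein, held 92.3% and 83.8%, and Cbfa2t3-207, a 537-base transcript with a retained intron, held 5.72% and 13.0% from 12.1 and 23.1 estimated counts. Cbfa2t2-201 held 40.5% and 57.5% of its gene, and Cbfa2t2-202, which encodes a shorter protein, 16.5% and 12.6%. The upstream starts of Cbfa2t2 took 85.4% and 85.6%. At its low level the other Cbfa2t2 transcripts were poorly determined: Cbfa2t2-203 and Cbfa2t2-209, both incomplete models, held 14.97% and 13.4% in replicate 1 and 0% and 8.39% in replicate 2. Cbfa2t2-206 held 9.72% and 2.95%, the retained-intron transcript Cbfa2t2-205 4.89% and 11.3% from 1.99 and 3.45 counts, and Cbfa2t2-204 0.08% and 7.27%.

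Over the 10 genes 26 of the 95 transcripts had 0 counts in both libraries, and 39 held at least 5% of their gene in a library. Leaving out Lyl1 with its single transcript, 6 of the other 38 (15.8%) had 0 counts in the other library, where the same share over all expressed genes with several transcripts was 12.9%. For 11 of the 38 (28.9%) the share differed by 10 percentage points or more between the libraries, against 29.2% over all such genes. Both shares were near those of all genes.

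**Figure D3:**
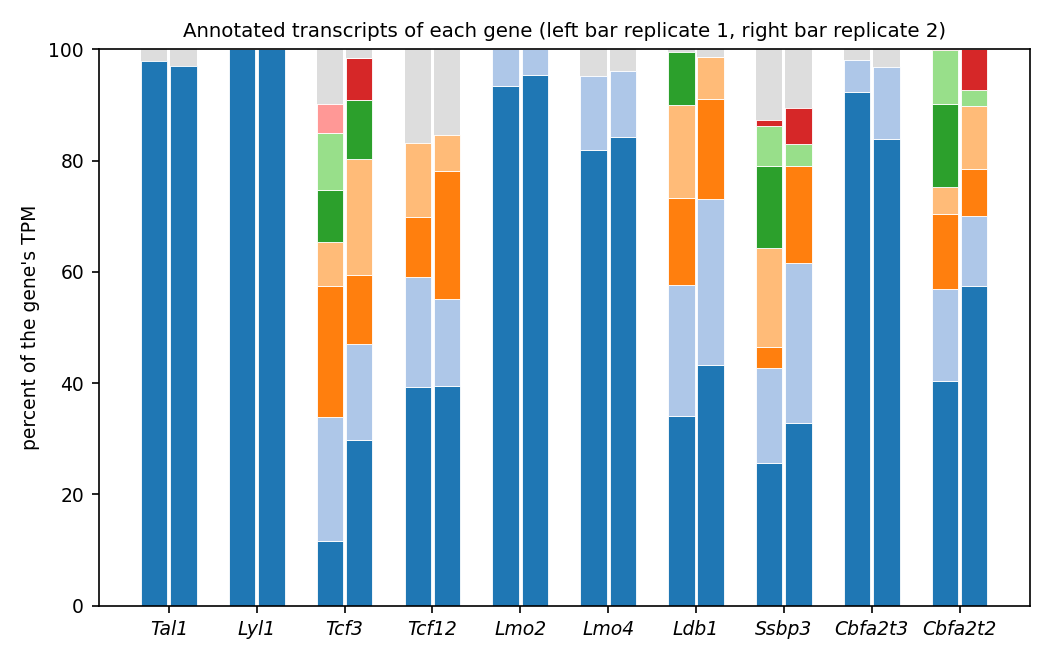
Percent of each gene's TPM on its annotated transcripts, left bar replicate 1 and right bar replicate 2. Each colour is a transcript with at least 5% in a library and grey is the sum of the others. Tal1, Lyl1, Lmo2, Lmo4 and Cbfa2t3 are carried by 1 transcript each, while Tcf3, Ssbp3 and Cbfa2t2 are divided among many whose shares differ between the bars.

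Ordered by mean TPM the genes ran Tcf12, Ssbp3, Lmo2, Lmo4, Tcf3, Tal1, Ldb1, Lyl1, Cbfa2t3 and Cbfa2t2. Tcf12, Ssbp3, Lyl1, Cbfa2t3 and Cbfa2t2 kept their rank in both libraries. Neighbours differed by more than 2 SD of their log2 ratio for Ssbp3 over Lmo2 (0.48 ± 0.22), Lmo4 over Tcf3 (0.18 ± 0.06), Ldb1 over Lyl1 (0.16 ± 0.08), Lyl1 over Cbfa2t3 (0.29 ± 0.05) and Cbfa2t3 over Cbfa2t2. They did not for Tcf12 and Ssbp3 (0.36 ± 0.18), Lmo2 and Lmo4, Tcf3 and Tal1 (-0.01 ± 0.26) or Tal1 and Ldb1 (0.09 ± 0.18). Credibility intervals divided the pairs in another way. Those of Lmo4 and Tcf3, and of Ldb1 and Lyl1, overlapped in replicate 2. Those of Tcf3 and Tal1 overlapped in neither library, with Tcf3 higher in replicate 1 and Tal1 in replicate 2. An SD over 2 libraries is itself imprecise, and an exact sign-flip test over them cannot give a two-sided p below 0.5.

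Counting only complete coding transcripts changed the top of this order. Lmo4 (31.9 ± 14.0 TPM, SD, n = 2), Lmo2 (31.1 ± 10.7 TPM) and Tal1 (27.5 ± 6.19 TPM) then led. Tcf12 moved from 1st to 7th with 21.9 ± 6.22 TPM, and Ssbp3 from 2nd to 9th with 17.4 ± 2.54 TPM. From Lmo4 down to Tcf12, no pair of neighbours differed by more than 2 SD. Cbfa2t2 stayed last with 3.61 ± 0.700 TPM, beyond 2 SD below Ssbp3.

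**Figure D4:**
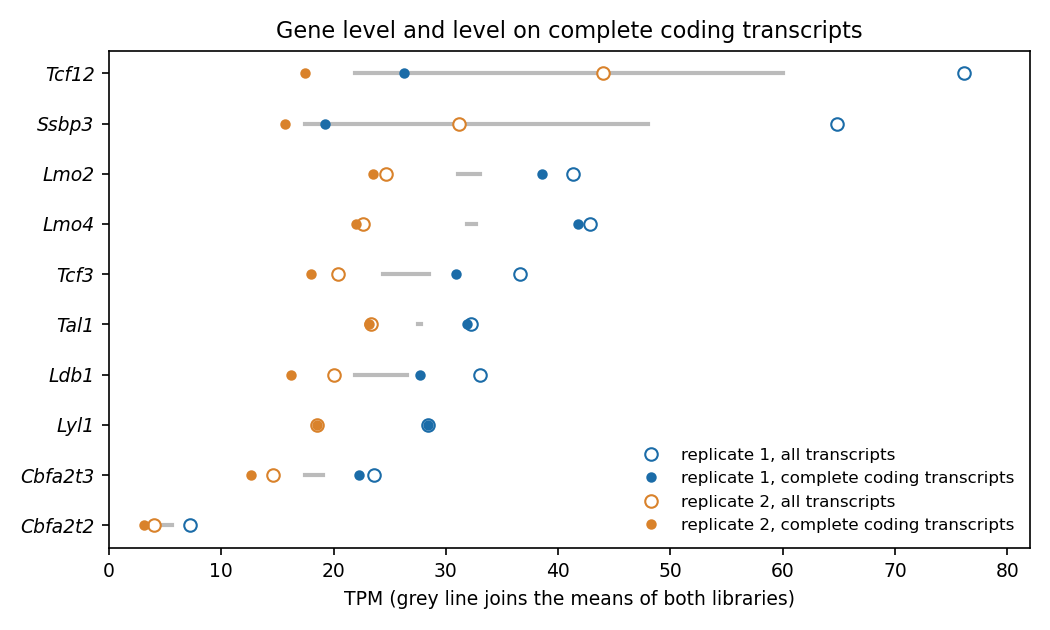
TPM of each gene over all its transcripts (open circles) and over complete protein-coding transcripts (filled circles) in replicate 1 (blue) and replicate 2 (orange), with a grey line between the means. The circles nearly coincide for Tal1, Lyl1 and Lmo4, while Tcf12 falls from a mean of 60.1 to 21.9 TPM and Ssbp3 from 48.0 to 17.4 TPM.

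Between the libraries, scaled by the trimmed mean of M-values (TMM), the 10 genes stayed within a narrow range. A gene was called at a Benjamini-Hochberg adjusted p under 0.05 in a two-sided exact binomial test and a ratio of at least 2-fold. None of the 10 was called by this test, while 7.32% of the 11902 genes tested were (5.12% higher in replicate 2 and 2.2% higher in replicate 1). In edgeR's negative binomial exact test, which calls 2.49% of all genes, every one of the 10 had an adjusted p of 1. That test has 1 library a side and takes its spread (a coefficient of variation of 26.3%) from the same pair of libraries, so it lends the result no support. The members are well counted, and among the 3629 genes with at least as many counts as Cbfa2t2, 1.24% were called. At an unadjusted p under 0.05 in the exact binomial test 7 of the 10 differed. The same number had a 95% interval that left out 1, against 40.7% of all genes tested and 53.0% of the well-counted ones, and at an adjusted p under 0.05 alone 6 did, against 32.3% of all genes tested and 45.3% of the well-counted ones. All 10 had ratios within 1.5-fold, as did 80.4% of all genes tested and 97.4% of the well-counted ones. The log2 ratios of replicate 2 over replicate 1 had a median of -0.12 for the 10 genes, 0.01 for all genes tested and -0.02 for the well-counted ones. Scaled to spike-in counts, which put the median log2 ratio of all genes at -4.49, all 10 were called higher in replicate 1, as were 97.5% of all genes tested.

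Of the 6 genes past the adjusted p, Tal1 alone was higher in replicate 2 after TMM scaling, though not under total counts (ratio 0.781), where the median log2 ratio of all genes was -0.52. After TMM scaling its ratio of replicate 2 over replicate 1 was 1.13 (95% interval 1.07 to 1.19, adjusted p = 0.000105, exact binomial test). The other 5 were lower in replicate 2: Lmo4 at 0.817 (0.747 to 0.894), Ssbp3 at 0.881 (0.824 to 0.943), Ldb1 at 0.882 (0.808 to 0.963), Cbfa2t3 at 0.890 (0.831 to 0.953) and Tcf12 at 0.905 (0.865 to 0.947). The corresponding adjusted p from the exact binomial test ran from 7.75e-05 for Lmo4 to 0.0183 for Ldb1. For Tcf3 (0.930, 0.866 to 0.999), Lmo2 (0.932, 0.856 to 1.01), Lyl1 (1.01, 0.923 to 1.11) and Cbfa2t2 (1.08, 0.960 to 1.22) the adjusted p was 0.113 or more in the exact binomial test. These intervals compare a pair of libraries and leave out spread between cultures.

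Most listed target genes of the complex, known for their late rise in erythroid maturation, were higher in replicate 2 after TMM scaling. Of the 10 listed targets 7 were called higher in replicate 2, against 5.12% of all genes tested, and 0 higher in replicate 1, with a median log2 ratio of 3.08. The list was chosen with earlier results of these libraries known, so its count is no independent evidence of a direction. Under spike-in scaling, over the 31 tested genes of all 4 lists, 1 was called higher in replicate 2 and 27 higher in replicate 1. Slc4a1, the anion exchanger of the red cell membrane, had 115 and 10387 counts, a ratio of 101 (84.4 to 123). The haemoglobin genes Hbb-bt (28.5), Hbb-bs (19.0), Hba-a2 (15.4) and Hba-a1 (8.55) followed, with reads divided between near-identical copies by the authors' estimate. Alas2, the first enzyme of erythroid haem synthesis, had a ratio of 8.30 (6.27 to 11.2) and Epb42, a membrane skeleton protein, 3.80 (2.97 to 4.92). Klf1, an erythroid activator, had a ratio of 1.06 (0.928 to 1.22) and Kit, the stem cell factor receptor, 0.985 (0.964 to 1.01), and neither was called. In the same pair of libraries Tal1, Lmo2 and Ldb1 had ratios of 1.13, 0.932 and 0.882. Whether these differences come from the cells or from handling cannot be told apart in 2 libraries.

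**Figure D5:**
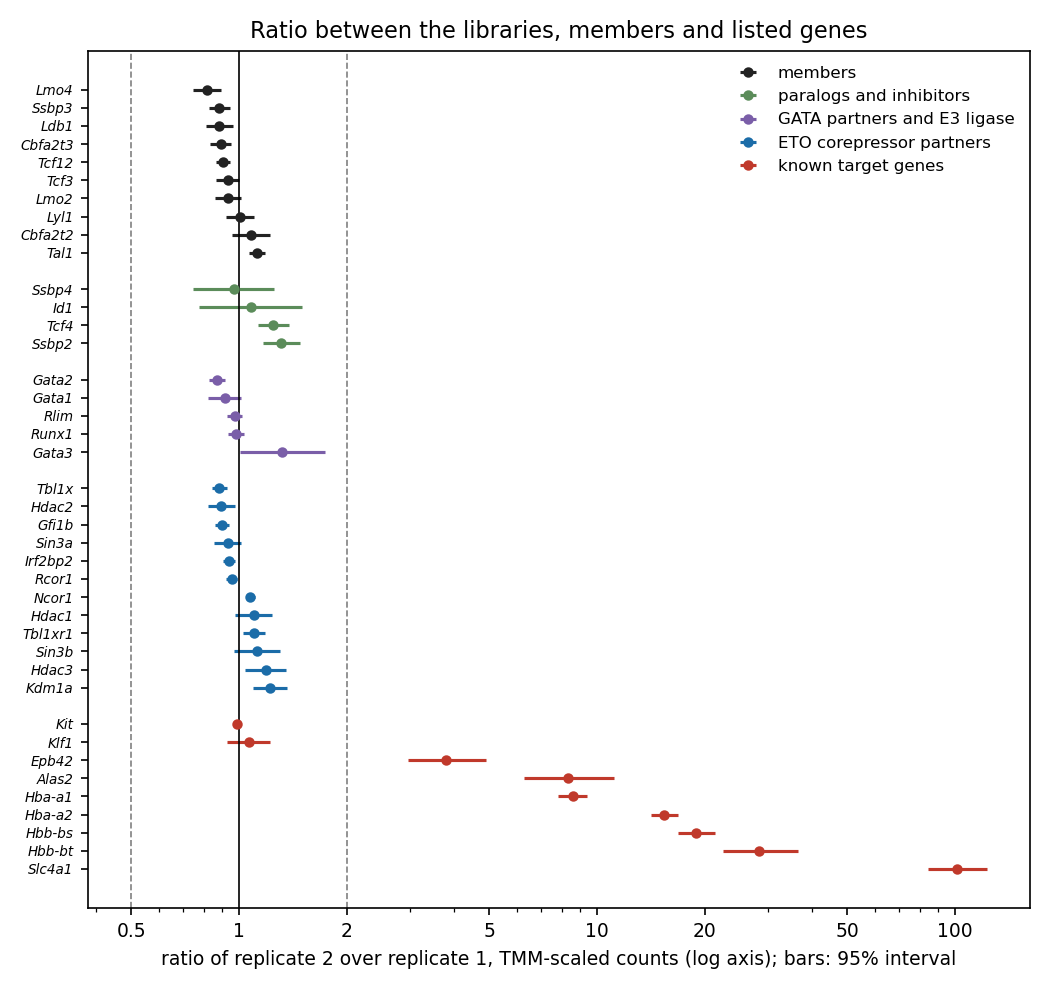
Ratio of replicate 2 over replicate 1 after TMM scaling, on a log axis, for the 10 genes (black) and tested genes from 4 lists, with 95% intervals for counting error as bars and dashed lines at 2-fold. All 10 genes and the partner lists sit between the dashed lines, while 7 targets lie to the right, up to a ratio of 101 for Slc4a1.

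The GATA factors that LMO2 connects to the complex, Runx1 and the LDB1 ligase gene were also present. All 5 genes of this list were detected and none was called. Runx1, a partner factor in blood progenitors, had 42.8 and 27.8 TPM, Gata2 had 52.8 and 29.5 TPM, and Rlim, the ligase that marks LDB1 for breakdown, had 24.4 and 15.7 TPM. Gata3 was low, at 4.0 and 1.81 TPM. Gata1 and Gata2 had ratios between the libraries of 0.913 (0.822 to 1.01) and 0.867 (0.825 to 0.912).

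Of 13 corepressor partners of ETO proteins 12 were detected and none was called, with log2 ratios between -0.18 and 0.29. Ncor1, a nuclear corepressor scaffold, was highest with 131 and 93.7 TPM. Gfi1b, an erythroid repressor that works with LSD1, had 123 and 71.97 TPM. Rcor1, the CoREST scaffold, had 71.1 and 40.8 TPM, Irf2bp2, an ETO2-associated corepressor, 51.3 and 31.0 TPM, and Tbl1x, a subunit of the NCOR complex, 33.3 and 18.9 TPM. Of the deacetylases, Hdac2 had 33.1 and 17.5 TPM and Hdac1 16.1 and 11.1 TPM. The scaffolds Sin3a and Sin3b had 24.1 and 10.5 TPM and 11.7 and 8.53 TPM, and Kdm1a, which encodes LSD1, had 13.9 and 11.6 TPM. Among the 12 paralogs and inhibitors of the complex 4 were detected in both libraries, 7 had 0 counts in both and none of the 4 tested was called. Ssbp2 had the largest ratio of these 4, 1.32 (1.17 to 1.48).

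Markers of lineages that also use the TAL1 complex were partly present. Of 7 megakaryocyte markers 3 were detected in both libraries (Pf4, Itga2b and Ppbp), and the defining Vwf had 0 counts. Their summed level was 25.7 and 15.8 TPM, and Gp1ba, with 32 and 10 counts, was called higher in replicate 1. Of 6 mast cell and basophil markers 2 were detected, Cpa3 with 51.4 and 24.8 TPM and Hdc with 3.74 and 2.88 TPM, while Mcpt8 and Cma1 had 0 counts in both. Their summed level was 55.3 and 27.7 TPM, and Cpa3 had a ratio between the libraries of 0.744 (0.685 to 0.807). Adgre1 (1 and 15 counts) and Cd68 (17 and 1) were called in opposite directions. The part of these cells or genes in the levels of the complex was not tested, and in bulk RNA fewer cells of a type and less RNA per cell cannot be told apart.

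Promoter windows of 300 bases were available from RefSeq (GRCm38) for 9 of the 10 genes, 18 windows in all, and none for Lmo2. The GATA motif AGATAA (either strand) was in 3 of the 18, in windows of Tal1, Ldb1 and Ssbp3, and in 11.2% of all 32851 windows. In Tal1 it lay 205 bases before the start of the main transcript. The Ldb1 window was set on a start at 46037070, outside the Ldb1 start clusters given above. The Ssbp3 window was set on 106923185, the start of Ssbp3-214, which held 0% and 3.1% of the gene's TPM. The E-box CAGCTG was in 3 windows (16.3% of all) and the E-box CAGATG in 2 (17.2%), and both occurred in the window of Cbfa2t3. The KLF motif CCACACCC was in none of the 18 and in 3.56% of all. These are letter matches only.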

How the data were processed

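Total RNA of 2 G1E libraries was quantified by the authors per gene and per transcript. The tables give the authors' estimated counts, also called expected counts, without normalisation. TPM and FPKM values were deposited beside them. Lower and upper credibility bounds of TPM, treated as a signal, were deposited too, with no level stated. Each transcript's share of its gene was deposited as a percent. The mm10 assembly and GENCODE M4 are named per the deposited file records. No aligner, quantifier, version or strand setting is given in the sources used here. The libraries held 31649878 and 40597614 estimated counts, which set the floors given with the results.

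Symbols, transcript biotypes and coordinates were taken from GENCODE M21 (GRCm38) by identifier, version dropped (42462 of 43346 genes, and 95 of 95 transcripts of the members, 92 with the same length). Those that differ were Cbfa2t3-203 (4047 bases as deposited, 7645 in M21), Lmo4-203 (1338 and 1417) and Ldb1-207 (2014 and 3133). Cbfa2t3-203 and Lmo4-203 lead their genes, and their TPM were deposited beside the shorter lengths. The members and gene lists were chosen with earlier results of these data known. The text names all 10 members, their transcripts with at least 5% of the gene's TPM in a library, Gata1 and Gata2, and listed genes with a mean of at least 10 TPM or a call. Genes outside that rule (paralogs, inhibitors and markers) are named to account for their lists, and a few listed genes are not reported here.

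Estimated counts were rounded to whole numbers and the libraries compared gene by gene with a two-sided exact binomial test, against the ratio of TMM effective sizes from edgeR 4.0.16 (R 4.3.3), over 11902 genes with at least 10 counts, with exact Clopper-Pearson 95% intervals. p-values were adjusted by Benjamini-Hochberg over all of these genes. The test was checked on simulated data. Log ratios between genes used log2(TPM + 1). Sequences, identities and motif matches came from GENCODE transcripts and RefSeq promoter windows with Biopython 1.88. Residue identities used translated coding sequences of the leading complete transcript. Python 3.11.15, SciPy 1.17.1, pandas 2.3.3 and DESeq2 1.42.0 were also used. Alternatives were other scalings, no count filter, a negative binomial exact test, other pseudocounts and estimates, counts not divided by length, single libraries, and, added after the data were seen, the non-coding transcript with the E12 exon and complete coding transcripts only.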

Additional observations from a re-analysis of the deposited data

How the results depend on the processing

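No paired analysis was possible because the labels define 1 group, and leaving out a library leaves no comparison between libraries. Calls among the 10 genes (0) and the 40 genes of the partner, corepressor and target lists (7) were the same under total counts, DESeq2 size factors, no count filter and the negative binomial test. For the 10 genes this says little. Dropping the count filter leaves their ratios as they are, and the negative binomial test lends no support, as stated above. Under total counts the ratio of Lmo4 was 0.567, short of 2-fold. Scaling to spike-in counts, which were 514 and 10351, called 10 of the 10 (all higher in replicate 1) and 28 listed genes, with the median of all genes at -4.49 and that of the members at -4.62. Total counts moved the median of all genes to -0.52 and that of the members to -0.65, with Tal1 at a ratio of 0.781, below 1.

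The restriction to complete coding transcripts reversed the log2 ratio of Tcf12 over Tcf3 (-0.13) and of Ssbp3 over Ldb1 (-0.28), and moved Cbfa2t3 over Cbfa2t2 to 1.96, Ldb1 over Lmo2 to -0.49 and E proteins over ID genes to 3.34. Counts not divided by length gave 1.49 for Tal1 over Lyl1, 1.31 for Tcf12 over Tcf3, 1.56 for Cbfa2t3 over Cbfa2t2, -0.081 for Ldb1 over Lmo2, 0.73 for Tal1 over Cbfa2t3 and 5.61 for E proteins over ID genes. A pseudocount of 0.1 gave 1.77 for Cbfa2t3 over Cbfa2t2 and 4.55 for E proteins over ID genes. Posterior mean TPM gave 1.44 for Cbfa2t3 over Cbfa2t2 and -0.33 for Ldb1 over Lmo2, and FPKM 1.55 for the former. The E12 share was 34.5% with the non-coding transcript. Each of these settings changes the quantity itself: the transcripts counted, the division by length, the pseudocount or the estimate. Tal1-201 has 4213 bases and Lyl1-201 has 1800, so counts not divided by length raise Tal1 over Lyl1. Beyond these changes of quantity, the cause of each shift was not tested. The other 62 recomputed values of these results moved by no more than 1 SD or kept their call. Those from single libraries are among them and say nothing on stability. With 2 libraries, each such value lies within 1 SD of the mean by arithmetic. Single libraries gave a median member level of 21.5 to 34.8 TPM. Cbfa2t2 had the fewest counts of the 10 genes.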
